A study of Mus musculus with 6 samples.

Results

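Fat is stored in lipid droplets, which carry a single layer of phospholipid around a core of triglyceride and are coated by proteins. The 7 genes described here encode coat and assembly proteins of the droplet: the perilipins Plin1, Plin2, Plin3 and Plin4, the fusion protein Cidec, and the endoplasmic reticulum proteins Bscl2 (seipin) and Fitm2. They were chosen by name from a table of 13283 genes, with earlier results of these data known. All 7 were present and passed the filter on low values.

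RNA-seq was performed on 6 libraries from an immortalized mouse brown preadipocyte line that had been differentiated to brown adipocytes, 3 from MICT1 KO cells and 3 from control cells given scrambled sgRNA (Scr). MICT1 is a microprotein of brown adipocytes. Both groups expressed Cas9 and had received lentiviral sgRNA before differentiation. During differentiation both were given insulin, isobutylmethylxanthine, dexamethasone, T3, indomethacin and the PPARγ agonist rosiglitazone. Both were treated on day 6 with 10 µM forskolin for 6 h. No library came from untreated cells, so the part of forskolin in the differences between the groups was not tested. The MICT1 KO cells were pools made with different sgRNAs and sorted for GFP, and the labels do not tell which sgRNA each library came from. The control libraries are labelled WT. MICT1 expression was not analysed here, so the knockout was not checked on its target.

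Perilipin 1 is the main coat protein of the adipocyte droplet. At rest it holds back lipolysis, and its phosphorylation by protein kinase A, the kinase that forskolin activates through cAMP, opens the droplet to lipases. Perilipin 2 coats droplets in most cell types, perilipin 3 is a widely expressed protein that moves from the cytosol to new droplets, and perilipin 4 coats small new droplets in adipocytes. Cidec gathers at contacts between droplets and lets lipid pass into the larger of them, while seipin and Fitm2 act where droplets bud from the endoplasmic reticulum.

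The deposited value of a gene appears to be an estimate of its reads divided by a size factor for each library, which was inferred from the values. On that inference, the libraries correspond to between 15445878 and 17925571 estimated reads over the genes listed. The test was limma-trend on log2(value + 1), and an adjusted p (Benjamini-Hochberg over the 12507 genes tested) under 0.05 was taken as a call. The methods call all replicates biological but the labels do not name separate cultures, so p measures only the spread between these libraries of a single cell line, which may be technical. Fewer adipocytes in a culture and less RNA per adipocyte cannot be told apart in these bulk samples.

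All 7 genes were lower in MICT1 KO cells, with means between 79.3% of the Scr level in Plin3 and 1.92% of it in Plin1. Of all genes tested, 28.3% were called lower and 28.5% higher, and a call in either direction was made in 56.9%. A fall of at least 2-fold was called in 6 of the 7 genes, against 5.76% of all genes tested. Since the 7 genes were chosen with earlier results of these data known, these contrasts with all genes describe the members and test nothing. The 3 MICT1 KO values lay below the 3 Scr values in 7 of 7 genes, as they did in 31.2% of all genes tested. The median log2 fold change was -2.38 over the 7 genes and -0.0053 over all genes tested.

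**Figure D1:**
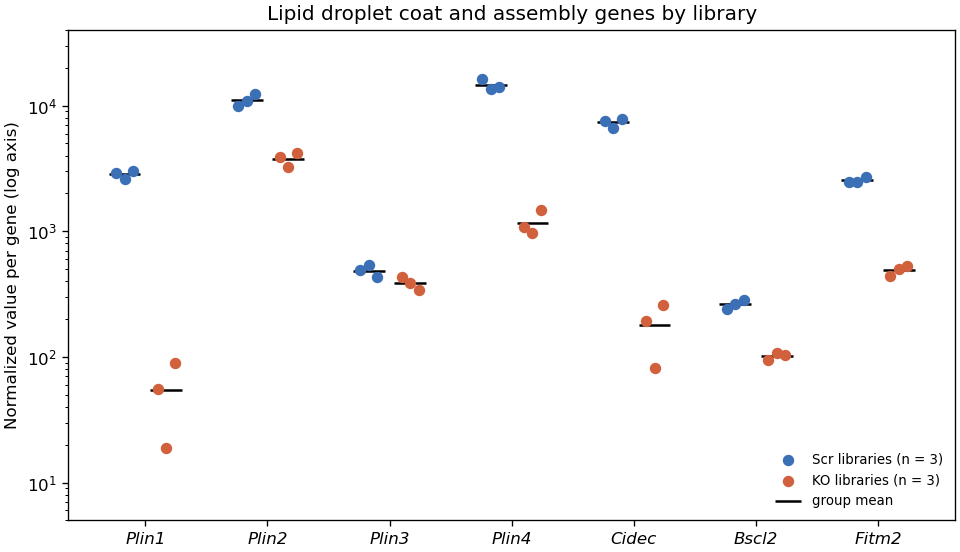
Normalized value (log axis) of each gene in the 3 Scr (blue) and 3 MICT1 KO (orange) libraries, with horizontal lines at the group means. The groups do not overlap in any of the 7 genes, and the gap is widest for Plin1 and Cidec and narrowest for Plin3.

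The promoters of Cidec, the member with the second largest fall, and of Plin3, the member with the smallest, are shown to set a large and a small fall side by side. That of Plin1, whose fall was larger still, is not printed because 127 bases of it lie in an annotated exon of Plin1, and it held 1 CG dinucleotide. Each run covers the 250 bases before the RefSeq start (GRCm38.p6, minus strand, written 5′ to 3′), and capitals mark CG dinucleotides. The Cidec window is chr6:113435761-113436010 and the Plin3 window is chr17:56290512-56290761, and neither overlaps an exon annotated by GENCODE.
Cidec: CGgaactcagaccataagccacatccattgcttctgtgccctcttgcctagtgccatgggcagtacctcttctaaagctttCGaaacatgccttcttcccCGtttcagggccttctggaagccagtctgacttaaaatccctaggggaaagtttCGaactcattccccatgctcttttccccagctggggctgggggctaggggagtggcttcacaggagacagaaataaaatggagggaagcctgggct
Plin3: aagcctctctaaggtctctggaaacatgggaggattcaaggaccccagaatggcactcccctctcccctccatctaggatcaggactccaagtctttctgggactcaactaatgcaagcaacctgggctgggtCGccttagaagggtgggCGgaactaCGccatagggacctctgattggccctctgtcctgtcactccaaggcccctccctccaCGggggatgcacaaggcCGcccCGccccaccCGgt
Cidec held 4 CG dinucleotides and Plin3 held 7, against a median of 6 over 32841 promoters of the same length. The GC content was 52.8% and 60.0%, against a median of 52.4%. The window of the second Cidec start, which is not printed and overlaps no annotated exon, held 6 CG dinucleotides at a GC content of 56.8%. RefSeq gives 10 promoters for the 7 genes, since Cidec and Bscl2 have more than 1 start. A search of both strands of these 10 windows found no match to the DR1 element of PPAR and RXR (a pair of AGGNCA letters in a row with 1 base between them), TGACGTCA (the full cAMP response element), TTGCNNCAA (a C/EBP palindrome) or TATAAA (the TATA box). These letters occurred in 0.338%, 1.55%, 1.74% and 12.4% of all promoters. The lack of a match says only that these letters are not in these windows.

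Plin1 lies on chromosome 7 from 79721164 to 79732904 (GRCm38, minus strand). Its values were 2922, 2605 and 3029 for the Scr libraries against 55.3, 19.0 and 90.2 for the MICT1 KO libraries. Every Scr library was high and every MICT1 KO library was low, with KO replicate 2 the lowest. The mean fell from 2852 ± 221 (SD, n = 3) to 54.8 ± 35.6 (SD, n = 3), which is 1.92% of the Scr level. The log2 fold change was -5.93 (SE 0.31, limma-trend adjusted p = 7.70e-13), which ranked 8 among the falls of the 12507 genes tested. The lowest value, in KO replicate 2, corresponds to 18 estimated reads.

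Cidec (chromosome 6, from 113424634 to 113435760, minus strand) had values of 7480, 6669 and 7879 in Scr, and in MICT1 KO cells they were 194, 81.1 and 260. As for Plin1, the order among the MICT1 KO libraries was replicate 2 lowest and replicate 3 highest. The Scr libraries had this order as well in both genes. The mean fell from 7342 ± 616 (SD, n = 3) to 179 ± 90.6 (SD, n = 3), or 2.43% of Scr, with a log2 fold change of -5.51 (SE 0.23, limma-trend adjusted p = 3.16e-14) and rank 11 among the falls. Leaving out 1 library at a time, the log2 fold change lay between -6.41 and -5.31 for Plin1 and between -5.85 and -5.02 for Cidec.

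Plin4 (chromosome 17, from 56100587 to 56109948, minus strand) had values of 16165, 13681 and 14196 in Scr libraries. In MICT1 KO libraries they were 1087, 965 and 1465. The mean of 14680.5 ± 1311 (SD, n = 3) fell to 1172 ± 260 (SD, n = 3), a 12.5-fold difference, and the log2 fold change was -3.66 (SE 0.10, limma-trend adjusted p = 2.75e-17). Plin1, Cidec and Plin4 were the 3 members whose means differed at least 10-fold. In the GENCODE annotation 17 bases of Plin4 overlap Hdgfl2 on the other strand, which was higher in MICT1 KO cells (1253 in Scr and 1795 in MICT1 KO libraries).

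Plin2 (chromosome 4, from 86626910 to 86670217, minus strand) remained well expressed. Its values were 10024, 10908 and 12451 in Scr, and in MICT1 KO cells they were 3934, 3266 and 4178. The mean fell 2.93-fold, from 11128 ± 1228 (SD, n = 3) to 3793 ± 472 (SD, n = 3), with a log2 fold change of -1.55 (SE 0.080, limma-trend adjusted p = 6.84e-13). Its fold was far smaller than that of Plin1, and so was the SE of its log2 fold change, 0.080 against 0.31.

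Plin3 (chromosome 17, from 56278962 to 56290511, minus strand) changed least. Its values were 490, 537 and 432 in Scr, and in MICT1 KO cells they were 430.0, 386 and 341, so the lowest Scr library and the highest MICT1 KO library nearly met. The Scr mean was 486 ± 52.2 and the MICT1 KO mean 386 ± 44.5 (SD, n = 3 each), or 79.3% of Scr. The log2 fold change was -0.33 (SE 0.11, limma-trend adjusted p = 0.0151), and its 95% interval ran from -0.57 to -0.10. This call depended on single libraries. Without Scr replicate 2 the log2 fold change was -0.26 (limma-trend adjusted p = 0.0976), and without KO replicate 3 it was -0.25 (adjusted p = 0.0872).

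Fitm2 (chromosome 2, from 163468703 to 163472629, minus strand), which is needed for normal budding of droplets, had values of 2467, 2459 and 2711 in Scr, and in MICT1 KO cells they were 444, 497 and 527. The groups stood far apart and varied little within themselves. The mean fell 5.20-fold, from 2546 ± 143 (SD, n = 3) to 489 ± 41.7 (SD, n = 3), with a log2 fold change of -2.38 (SE 0.077, limma-trend adjusted p = 3.72e-16). An antisense gene on the plus strand, 2310001K24Rik, shares 673 bases with Fitm2 in the GENCODE annotation and has no row in the table.

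Bscl2 (chromosome 19, from 8837467 to 8848683, plus strand) encodes seipin, whose loss causes a congenital lack of fat tissue. Its values were 241, 262 and 286 in Scr, and in MICT1 KO cells they were 93.7, 107 and 103. Each Scr library was well above each MICT1 KO library, and the groups did not overlap. The mean fell from 263 ± 22.7 (SD, n = 3) to 101 ± 6.97 (SD, n = 3), or 38.5% of Scr, with a log2 fold change of -1.37 (SE 0.15, limma-trend adjusted p = 1.91e-07). Divided by the step of its library, the Bscl2 value was whole, within 0.05 of a read, in 2 of the 6 libraries. Plin2, Plin3 and Fitm2 were whole in all 6, Plin1 in 5, and Plin4 and Cidec in 4 each. Bscl2 shares 3671 bases on the same strand with the GENCODE gene AC129217.1 and 1728 bases on the other strand with Gng3, so the number of reads that belong to Bscl2 is uncertain. Gng3 itself had few reads, with values between 5.48 and 20.3 over the 6 libraries, and was not tested.

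**Figure D2:**
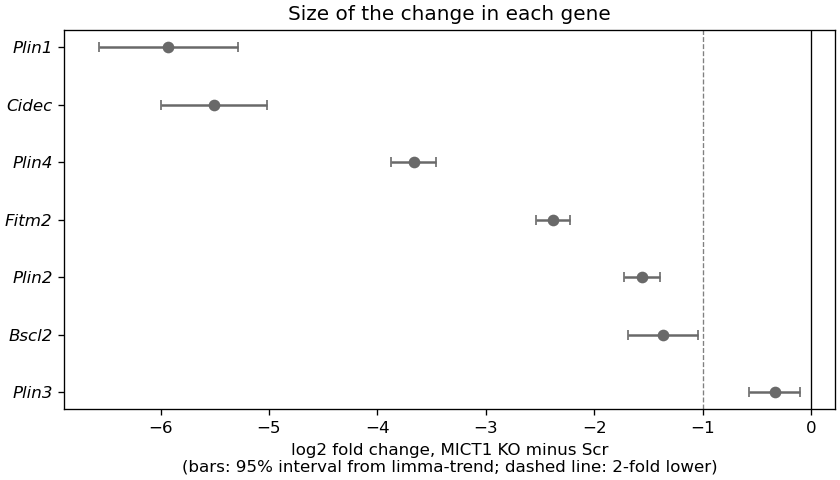
log2 fold change (MICT1 KO minus Scr, limma-trend) of each gene, with bars for the 95% interval and a dashed line at a 2-fold fall. The intervals of 6 genes lie below the dashed line, and that of Plin3 lies between the line and 0.

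Falls of unequal size were compared within libraries. The log2 ratio of each gene to Plin3 was taken within each library, as a ratio of value + 1. For Plin1 this ratio was 2.55 ± 0.27 in Scr libraries and -3.04 ± 1.19 in MICT1 KO libraries (SD, n = 3 each), a difference of -5.59 (-5.46 with a pseudocount of 5). The difference in this log2 ratio was -5.17 for Cidec, -3.33 for Plin4, -2.04 for Fitm2, -1.22 for Plin2 and -1.03 for Bscl2. In each of these 6 comparisons the groups did not overlap and the exact permutation test (two-sided) gave p = 0.1 (0.1 after Benjamini-Hochberg adjustment), the smallest that 3 libraries against 3 can give. Plin3 fell least of the members in these same data, so a lower ratio to it followed from the falls given above. The share of all genes without overlap in this ratio was not taken.

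Expressed per length, as RPKM with the length of all exons annotated by GENCODE vM21, which understates genes with many isoforms, the genes ranked differently in the groups. In Scr libraries the order was Cidec (242 ± 22.6 RPKM, SD, n = 3), Plin2 (193 ± 20.4), Plin4 (155 ± 16.3), Fitm2 (39.2 ± 2.25), Plin1 (37.5 ± 3.30), Plin3 (7.84 ± 0.80) and Bscl2 (2.72 ± 0.22). Cidec and Plin2 overlapped at their edges (216 RPKM in each), as did Fitm2 and Plin1, while the other neighbours were separate. In MICT1 KO libraries the order was Plin2 (66.2 ± 8.22 RPKM), Plin4 (12.4 ± 2.80), Fitm2 (7.56 ± 0.69), Plin3 (6.24 ± 0.68), Cidec (5.90 ± 3.0), Bscl2 (1.05 ± 0.078) and Plin1 (0.72 ± 0.47). Here the ranges of Fitm2, Plin3 and Cidec overlapped, and so did those of Bscl2 and Plin1. Among 13148 genes with a length, Cidec ranked between 118 and 135 in the Scr libraries and between 5395 and 8788 in the MICT1 KO libraries. Plin2, by contrast, ranked between 136 and 182 and then between 620 and 830.

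The mix of perilipins was compared as shares of their sum. The summed level of Plin1 to Plin4 was 398, 372 and 413 RPKM in Scr and 87.2, 73.9 and 95.6 RPKM in MICT1 KO libraries. Plin2 made up 44.5%, 50.3% and 52.4% of that sum in the Scr libraries, against 78.1%, 77.3% and 76.6% with MICT1 KO. The share of Plin4 was 39.4% ± 3.79 (SD, n = 3) in Scr against 14.4% ± 1.67 (SD, n = 3) in MICT1 KO libraries. That of Plin1 was 9.50% ± 0.38 (SD, n = 3) against 0.81% ± 0.46 (SD, n = 3). The share of Plin3 was 2.0% ± 0.30 (SD, n = 3) against 7.40% ± 1.41 (SD, n = 3) although its own level was lower. None of these 4 shares overlapped between the groups, and the exact permutation test (two-sided) gave p = 0.1 for each (0.1 after adjustment), the smallest possible here. The shares were made from the same values as the falls given above. As parts of a single sum they are not separate results, since a change in any of them moves the others. How often such shares do not overlap in other sets of genes was not taken.

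**Figure D3:**
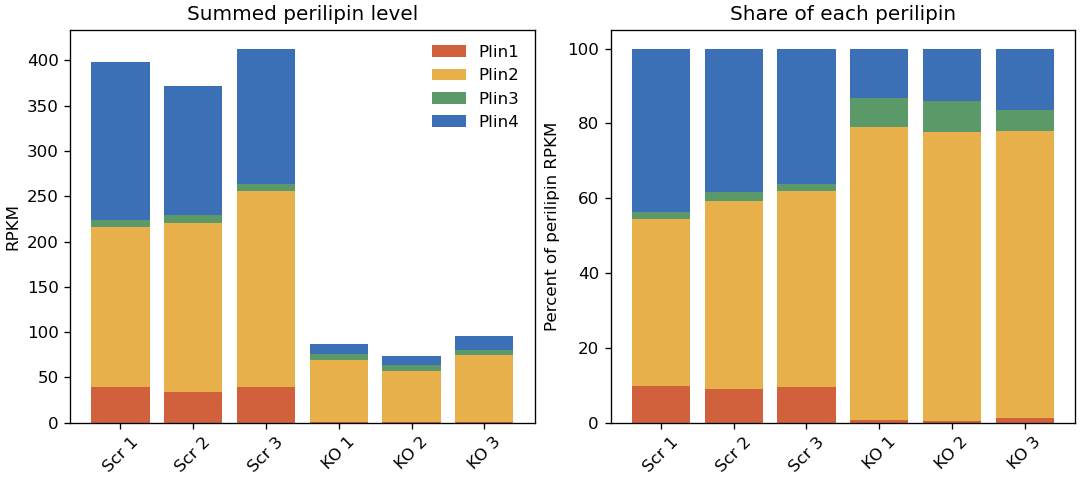
Summed RPKM of Plin1 to Plin4 in each library (left) and the share of each perilipin in that sum in percent (right). The bars of the MICT1 KO libraries reach 73.9 to 95.6 RPKM against 372 to 413 in Scr, and Plin2 fills most of them.

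The MICT1 KO libraries also differed among themselves. KO replicate 2 had the lowest value of the 3 in 4 of the 7 genes (Plin1, Plin2, Plin4 and Cidec), and KO replicate 3 the highest in 5 of them. Of 13 adipocyte markers, 8 were lowest in KO replicate 2 and 10 were highest in KO replicate 3, whereas of all genes tested 34.7% were lowest in KO replicate 2 and 31.4% highest in KO replicate 3. This order was not shared by every list. KO replicate 2 was lowest in 6 of 9 genes of lipolysis, 7 of 13 of triglyceride synthesis and 6 of 8 nuclear receptors and C/EBP factors, but in 9 of 25 other droplet proteins. KO replicate 3 was highest in 5, 3, 2 and 11 genes of these 4 lists, and KO replicate 1 in 3, 6, 5 and 6. Fabp4, a fatty acid carrier of adipocytes, had values of 5520, 3862 and 7002 in KO replicates 1, 2 and 3. Its values were 56242, 48661 and 55126 in Scr replicates 1, 2 and 3. Among the Scr libraries replicate 2 was likewise the lowest in Plin1, Plin4 and Cidec, but not in Plin2, so this order was not particular to the MICT1 KO libraries. The part of such differences in the values of the coat genes was not tested.

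Other proteins of the droplet surface and its assembly changed less uniformly. Of 36 names on that list, older symbols included, 27 were in the table and 25 were tested, of which 11 were lower, 5 higher and 9 were not called. Of all genes tested 28.3% were called lower and 28.5% higher, which is the background for this list and for those that follow. The median log2 fold change was -0.078, against -0.0053 over all genes tested. With the upper quartiles of the libraries made equal, 7 of the 25 were lower, as were 3217 of the 12507 genes tested. Plin5, the perilipin that links droplets to mitochondria, fell from 137 ± 30.7 (SD, n = 3) to 5.09 ± 1.88 (SD, n = 3) with a log2 fold change of -4.52 (SE 0.37, limma-trend adjusted p = 1.21e-09). Aifm2 had a log2 fold change of -2.92. A fall of at least 2-fold was called in 3 of the 25 genes tested, against 5.76% of all genes tested. The 5 that rose were Rnf213 (log2 fold change 1.21), Hsd17b11 (1.05), Spg20 (0.48), Acsl3 (0.32) and Rab3gap1 (0.22). The groups overlapped in Rab3gap1, which was not called without Scr replicate 2, Scr replicate 3, KO replicate 1 or KO replicate 2 (limma-trend adjusted p between 0.0571 and 0.0884).

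Genes of lipolysis fell alongside the coat genes. Of 9 tested, 7 were lower and 1 was higher, with a median log2 fold change of -3.40. G0s2, an inhibitor of the main triglyceride lipase, fell most (log2 fold change -5.86, from 4101 ± 599 to 71.7 ± 22.6, SD, n = 3), followed by Mgll, the monoglyceride lipase (-4.66). The main triglyceride lipase itself, Pnpla2, also fell (log2 fold change -3.40, from 4241 ± 547 to 400 ± 54.2, SD, n = 3). Lipe, the hormone-sensitive lipase, had a log2 fold change of -3.70. Abhd5, which perilipin 1 holds at the droplet and releases to activate Pnpla2, fell by 1.54 on the log2 scale. Pnpla2 and Abhd5 were chosen for mention after their values were seen. Of the called genes, Pnpla8 fell least (-0.78), and Abhd6 rose (1.83) from 21.8 ± 4.47 to 80.6 ± 19.4 (SD, n = 3).

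In triglyceride synthesis 8 of 13 tested genes were lower and 2 were higher, with a median log2 fold change of -0.84. Agpat2, an acyltransferase of the pathway, had a log2 fold change of -2.39 and Lpin1, a phosphatidic acid phosphatase, one of -1.94. Agpat4 (0.67) and Gpat4 (0.23) rose.

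Of the nuclear receptors and C/EBP factors of adipogenesis, 6 of 8 tested genes were lower and 1 was higher, with a median log2 fold change of -0.53. Pparg, the nuclear receptor that drives many genes of the adipocyte droplet, had values of 3546, 3406 and 4276 in Scr, and in MICT1 KO cells they were 802, 677 and 782, a log2 fold change of -2.31 (SE 0.082, limma-trend adjusted p = 1.69e-15). Cebpa fell with a log2 fold change of -3.01, and Ppard fell least among the called genes (-0.17, limma-trend adjusted p = 0.0295). Ppard was not called with equal upper quartiles (adjusted p = 0.0801) or without Scr replicate 1, Scr replicate 3, KO replicate 1 or KO replicate 2 (adjusted p between 0.0610 and 0.103), which left 5 of the 8 lower. Cebpd, a factor of early differentiation, rose (1.40).

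**Figure D4:**
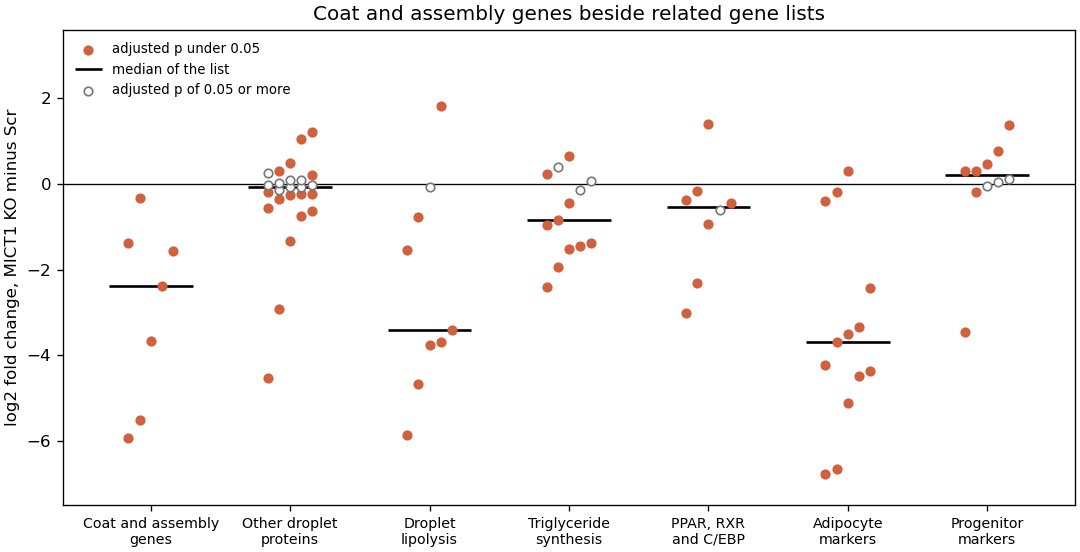
log2 fold change (MICT1 KO minus Scr) of single genes, grouped by list, with filled points for an adjusted p under 0.05 and lines at the list medians. All 7 coat and assembly genes lie below 0, whereas the other droplet proteins lie on both sides of 0 with a median of -0.078.

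The labelled cell type was checked on its markers. Of 18 adipocyte markers 13 were in the table, 12 lower and 1 higher in MICT1 KO cells, with a median log2 fold change of -3.70. Their summed level was 2478 to 2807 RPKM in Scr and 330 to 398 RPKM in MICT1 KO libraries. On the log2(value + 1) scale Cfd (log2 fold change -6.77) and Adipoq (-6.66) fell most. Their MICT1 KO values were 2.86, 4.21 and 12.4 for Cfd and 7.63, 3.16 and 5.18 for Adipoq. Both passed the filter on low values only through the Scr libraries, and their order depends on the pseudocount. By means, Cfd was at 0.92% and Adipoq at 0.85% of Scr. Fabp4 had a log2 fold change of -3.33, Acly fell by 0.17 on the log2 scale, and Fasn rose (0.30). Of 14 adipose progenitor markers 10 were tested, of which 2 were called lower (1 when the libraries were scaled to equal sums) and 5 were called higher. Their median was 0.20, and their summed level was 618 to 672 RPKM in Scr and 833 to 859 RPKM in MICT1 KO libraries. Ly6a (1.39) and Col1a1 (0.77) rose, whereas Dlk1, a marker of preadipocytes, fell (-3.47) and Pdgfra had a log2 fold change of -0.19 with overlapping groups and was not called with either rescaling or without Scr replicate 1, Scr replicate 2, KO replicate 1 or KO replicate 2. How far the degree of differentiation accounts for the values of the coat genes was not tested.

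Of 10 immune markers 4 were tested. Cd14 rose (log2 fold change 1.24), from 192 ± 54.8 to 444 ± 49.8 (SD, n = 3). The other 3 were not called, and their groups overlapped. The summed level of the 4 was 6.94 to 10.7 RPKM in Scr and 15.5 to 19.2 RPKM in MICT1 KO libraries. Ptprc and Adgre1, which define leukocytes and macrophages, have no row in the table, which lists only values above 0. The only endothelial marker in the table, Cdh5, was higher in MICT1 KO libraries (log2 fold change 1.71) at no more than 0.48 RPKM, and the 2 muscle markers tested, Acta1 and Des, were not called. The part of cells of these types in the result, if any were present, was not tested.

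The profiles nearest to each member were found by the root mean square difference of log2(value + 1) over the 6 libraries, after the Scr mean was subtracted, among 9129 genes with a mean of at least 10 CPM. For Plin1 they were Cidec (0.33), G0s2 (0.37) and Ffar4 (0.46), a receptor for long-chain fatty acids. For Cidec they were Ffar4 (0.18), Plin1 (0.33) and Cmbl (0.34). Plin4 was nearest to Pnpla3, Lipe (both 0.15) and Rbp4 (0.18), and Fitm2 to genes that include Agpat2 (0.058) and Sik2 (0.084). For Plin2 the nearest were Ppa1, Ehd2 and Egln3, for Bscl2 Kdm7a, Rgma and Bcl9l, and for Plin3 Hoxb2, Bet1 and Naxe, at differences between 0.034 and 0.085. Since 3 libraries of each profile stand in each group, this measure mostly reflects the size of the fold change.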

How the data were processed

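Reads had been aligned with Partek software to NCBI38/mm10, and the submitters' processing notes also name STAR and DESeq2. The libraries were made with a strand-specific kit, while the counting model, the annotation and whether counting used strand are not given in the sources used here. The signal the authors deposited is a normalized value per gene: between 88.7% and 90.2% of values under 20 were whole multiples (tolerance 0.01) of a step per library, too few for a count test. Genes listed are above 0 in every library, so a gene lost in a group would not be seen.

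Genes that reached 10 in 3 or more libraries were tested with limma-trend (R 4.3.3, limma 3.58.1, pseudocount 1), which was checked on simulated data. CPM and RPKM used the sum of values per library and GENCODE vM21 exon lengths, matched for 13148 genes (99.0%). Fold changes on the log2(value + 1) scale understate those of low genes. Genes were named if they are members, the 2 lowest or 2 highest called of a list, called against the majority of their list, neighbours or overlapping genes, or nearest in profile, or if they were Pparg, Cebpa, Adipoq or Fabp4, and a gene this rule names is not reported here. The members and lists were chosen with earlier results of these data known. Over all genes tested, replicate numbers did not pair the libraries, with correlations of deviations between same-numbered libraries of -0.024, -0.015 and 0.064. In Plin1 and Cidec, however, replicate 2 was lowest and replicate 3 highest in both groups. With the replicate number as a block, the SE of the log2 fold change was 0.20 for Plin1 and 0.15 for Cidec, in place of 0.31 and 0.23. For Bscl2 it was 0.16 in place of 0.15.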

Additional observations from a re-analysis of the deposited data

How the results depend on the processing

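The alternatives were other scalings of the libraries, pseudocounts of 0.5 and 5, no filter on low values, a filter at a maximum RPKM of 4, limma-voom, the replicate number as a block, and each library left out in turn. The falls of Plin1, Plin2, Plin4, Cidec, Bscl2 and Fitm2 were called under every alternative in which they were tested. Plin3 kept its direction, with log2 fold changes from -0.42 to -0.25 when a library was left out, and it was not called without Scr replicate 2 or KO replicate 3. The count of members lower was then 6, and it was 6 with the RPKM filter, which removed Bscl2. With equal upper quartiles 7 other droplet proteins were lower, since Ldah, Vps13a, Trappc11 and Rab40c, named after their values were seen, were no longer called, and each of these, Rab3gap1, Ppard and Pdgfra also lost its call without some single libraries. The RPKM filter left 0 lipolysis genes and 0 endothelial markers higher. Among progenitor markers 1 was lower with equal sums or equal upper quartiles, and between 1 and 2 when a library was left out. Without division by length the MICT1 KO minus Scr difference was 32.0 percentage points in the share of Plin2 and -28.8 in that of Plin4. With the replicate block 7 members were lower, the log2 fold change of Plin3 was -0.33 (adjusted p = 0.00992 from limma-trend), and the numbers of genes lower and higher were 3512 and 3543, in place of 3544 and 3569. The table lists only genes above 0 and its values are not counts, which limits what can be said of genes with few reads.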
